A study of Homo sapiens with 2 samples.

Results

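The genes described here encode the respiratory chain and ATP synthase, the complexes of the mitochondrial inner membrane, and come from both genomes of the cell. Members were chosen by name. They were the rows starting with MT- and the rows named as NDUFA, NDUFB, NDUFC, NDUFS or NDUFV with a number, SDHA to SDHD, UQCR, COX4 to COX8 with a subunit letter, or ATP5F, ATP5M or ATP5P. This rule took 96 of the 16251 genes in the count matrix, of which 78 were nuclear subunits, 13 were mitochondrially encoded and 5 matched by name without being counted as a subunit (NDUFA4L2, COX7A2L, NDUFB2-AS1, NDUFV2-AS1 and NDUFA6-DT). The cells were MDA-MB-453, an established breast cancer line that the labels call human triple-negative breast cancer and wild type. It was cultured in DMEM with serum and given water as vehicle or IL1β and TNFα, inflammatory cytokines that activate NF-κB, at 10 ng/ml for 24 hours. Each condition was 1 library of single-cell RNA with unique molecular identifiers (UMIs), so there was no replicate of either culture, no test was made, and the culture, the library and the treatment cannot be told apart.

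The respiratory chain passes electrons from NADH through complex I, or from succinate through complex II, to ubiquinone, then through complex III, cytochrome c and complex IV to oxygen. Complexes I, III and IV pump protons, and complex V uses the gradient to make ATP. Complex II is built from nuclear genes alone, whereas each of the others also has subunits that the mitochondrial genome encodes and mitochondrial ribosomes make. The mitochondrial genome is transcribed from both strands into long precursors that are cut into the separate RNAs. Nuclear subunits are made in the cytosol and imported, so the complexes need products of both genomes.

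The vehicle library had 2822 cells and 58587996 UMIs, and the cytokine-treated library had 3163 cells and 69592446 UMIs, with medians of 20249 and 21508 UMIs per cell. The libraries shared 8 cell barcodes. All 9 luminal and apocrine markers looked for were present, at 129 to 808 counts per 1000000 UMIs (CPM) with vehicle and 146 to 1825 CPM with cytokines, and the basal, leukocyte and erythroid markers with a row reached at most 4.17 CPM, while COL1A1 was at 20.9 and 20.1 CPM. The 2 hormone receptor genes looked for, which lie behind the triple-negative label, gave no values. That label also concerns HER2, whose gene ERBB2, one of the 9 luminal and apocrine markers, was at 129 and 208 CPM. By the deposited phase calls, 36.6% of vehicle cells and 88.5% of cytokine-treated cells were in G1, and UMIs of cytosolic ribosomal proteins made up 29.5% and 26.9% of the total.

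Each library's UMIs were summed per gene and divided by the library total. A gene counted as measured if either library had at least 5 CPM, and as higher or lower when the CPM differed at least 1.5-fold with the exact 95% interval of the log2 ratio (cytokine-treated over vehicle) on the same side of 0. Intervals cover counting error only. Of 9192 measured genes, 9.01% were higher and 19.9% lower with cytokines by this rule, and the median log2 ratio was -0.20. Scaling by TMM or by DESeq2 size factors adds 0.18 or 0.19 to every log2 ratio, so a value below 0 by less than that changes sign.

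As a whole, the nuclear subunits took a smaller part and the mitochondrially encoded genes a slightly larger part of the RNA in the cytokine-treated library. The nuclear subunits summed to 3.68% of UMIs in the vehicle and 3.33% in the cytokine-treated library, a log2 ratio of -0.15 (-0.148 to -0.142) that became 0.03 with TMM and 0.05 with DESeq2 size factors. The mitochondrially encoded genes summed to 6.42% and 6.60%, a log2 ratio of 0.04 (0.039 to 0.042) that became 0.22 and 0.23 under those scalings and -0.01 with library totals that leave out ribosomal and mitochondrial genes. That difference was a balance of 5 genes with intervals above 0 and 8 below, and it depended on single abundant genes. Without MT-CYB the other 12 mitochondrial genes summed to 59353 and 59690 CPM (log2 ratio 0.01). Without MT-CO2 the sums were 52876 and 53650 CPM (log2 ratio 0.02). The ratio of mitochondrially encoded to nuclear UMIs does not depend on scaling, and it was 1.74 in the vehicle and 1.98 in the cytokine-treated library, 1.14-fold higher (log2 difference 0.19). This holds for the sums and not for the typical gene. The median log2 ratio was -0.12 over the mitochondrially encoded genes and -0.07 over the measured nuclear subunits.

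Single nuclear subunits mostly stayed close to the sum. Of the 78, 75 were measured and 3 were not (COX6B2, ATP5MGL and UQCRHL). Against backgrounds of 9.01% and 19.9% of all measured genes, 2 of the 75 were at least 1.5-fold higher (among them NDUFV2) and 1 was at least 1.5-fold lower (ATP5ME). At 2-fold, which 4.29% of all measured genes passed upward and 7.48% downward, 1 nuclear subunit was higher (NDUFV2) and none was lower. Log2 ratios of 70 of the 75, or 93.3%, lay within 0.5 of 0, as did 64.1% of all measured genes. The median over the 75 was -0.07, and 47 of them lay above the median of all measured genes. Intervals lay above 0 for 26 subunits, below 0 for 42 and across 0 for 7. Over all 9192 measured genes these counts were 2508, 5289 and 1395. Of the nuclear rows, 47 have an annotated processed pseudogene, and 20 nuclear or mitochondrially encoded rows overlap an exon of another gene on the same strand, so reads could be split or shared for these.

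**Figure D1:**
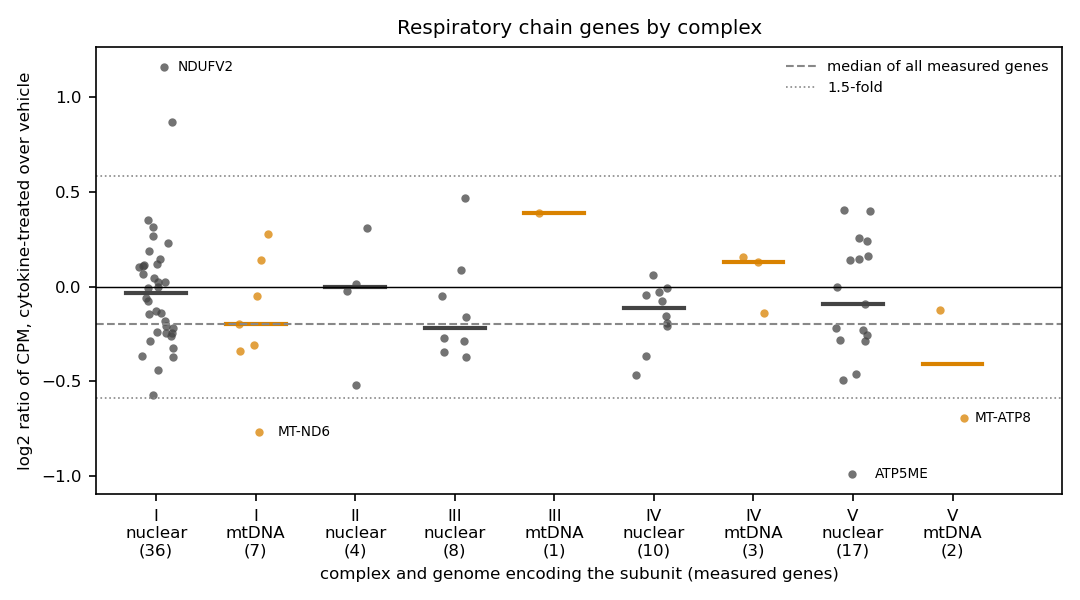
Log2 ratio of CPM (cytokine-treated over vehicle) on the y axis for each measured respiratory chain gene, by complex and by the genome that encodes it (number of genes in brackets). Points are genes, thick bars are group medians, the dashed line is the median of all measured genes at -0.20 and the dotted lines mark 1.5-fold. The 4 genes named are past 1.5-fold, from NDUFV2 at 1.16 to ATP5ME at -0.99.

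A few small subunits carried much of the lower nuclear sum. Of the 78 nuclear rows, 50 had a lower CPM in the cytokine-treated library, a summed difference of -4851 CPM, and 28 had a higher one, a summed difference of 1328 CPM. The 5 largest differences downward (ATP5F1E, COX8A, ATP5ME, UQCR10 and UQCRQ) summed to -1789 CPM. All 5 encode small subunits, with coding sequences of at most 246 bases. Without them the remaining 73 rows summed to 30398 and 28665 CPM, with a log2 ratio of -0.08 by library totals, which lies above 0 with TMM and DESeq2 scaling. The 5 were picked as the largest falls in these same data, so leaving them out had to raise the ratio.

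Complex I, the NADH dehydrogenase, had the widest spread upward. Its 36 nuclear subunits had a median log2 ratio of -0.03, which became 0.14 with TMM and 0.16 with DESeq2 size factors, and summed to 11541 and 11011 CPM. NDUFV2, a core subunit which carries an iron-sulfur cluster in the part of the complex that takes electrons from NADH, was at 242 CPM with vehicle (238 to 246) and 541 CPM with cytokines (535 to 546). That was a 2.23-fold difference (log2 ratio 1.16, 1.13 to 1.19). In GRCh38, NDUFV2 (ENSG00000178127) lies at chr18:9102630-9134345 on the plus strand.

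Other core subunits with ratios closer to 0 included NDUFS1 and NDUFV1. NDUFS1, with several iron-sulfur clusters, was at 36.4 and 30.7 CPM (log2 ratio -0.25), and NDUFV1, which binds FMN and NADH, at 142 and 137 CPM. The 29 supernumerary subunits, which surround the core, summed to 9950 and 9078 CPM, with a log2 ratio of -0.13 that turns above 0 with TMM and DESeq2.

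Among supernumerary subunits, NDUFC1 and NDUFS6 had the lowest ratios. NDUFC1, a small membrane subunit (ENSG00000109390, chr4:139266880-139302551, minus strand), was at 547 CPM with vehicle and 368 CPM with cytokines (log2 ratio -0.57, -0.60 to -0.55), just short of 1.5-fold. NDUFS6, a zinc-binding accessory subunit, was at 476 and 351 CPM (log2 ratio -0.44, -0.47 to -0.42). At the upper end of this group, NDUFA9 was at 49.5 and 63.3 CPM (log2 ratio 0.35) and NDUFB4 at 418 and 519 CPM (log2 ratio 0.31), and NDUFB4 has 12 annotated processed pseudogenes that could take reads from it or give reads to it.

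The 4 genes of complex II, the succinate dehydrogenase, went in different directions. SDHA, the flavoprotein that oxidizes succinate, was at 31.6 CPM with vehicle and 31.9 CPM with cytokines, with a log2 ratio of 0.01 and an interval that held 0 (-0.07 to 0.10). SDHB, the iron-sulfur subunit, was at 93.5 and 92.1 CPM, also with an interval across 0 (-0.07 to 0.03). The membrane anchors lay apart from each other. SDHC was at 149 and 184 CPM (log2 ratio 0.31, 0.27 to 0.35), whereas SDHD was at 58.6 and 40.8 CPM (log2 ratio -0.52, -0.59 to -0.45). SDHC and SDHD have 4 and 6 annotated processed pseudogenes. With both catalytic subunits near 0, the sum of the complex was 333 and 349 CPM.

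Complex III, the cytochrome bc1 complex, had the lowest median of the 5 complexes by library totals. Its 8 measured nuclear subunits had a median log2 ratio of -0.22, which stayed below 0 with TMM (-0.04) and DESeq2 size factors (-0.02). That is close to the median of all measured genes (-0.20), and the medians of the other complexes lay above it. Of its small subunits, 4 had log2 ratios below 0 under library totals, TMM and DESeq2 scaling, and none of them was past 1.5-fold. UQCRQ was at 1145 and 884 CPM (log2 ratio -0.37), UQCR10 at 1411 and 1113 CPM (-0.34), UQCRH at 1153 and 945 CPM (-0.29) and UQCR11 at 1094 and 906 CPM (-0.27). The core protein UQCRC2 (ENSG00000140740, chr16:21953288-21983660, plus strand) went the other way, at 90.9 and 126 CPM (log2 ratio 0.47, 0.42 to 0.52), while its partner UQCRC1 was at 156 and 151 CPM. UQCRB was at 675 and 719 CPM (log2 ratio 0.09), and UQCRFS1, the Rieske iron-sulfur protein, was at 302 and 271 CPM.

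Complex IV, cytochrome c oxidase, had the narrowest spread of the 5 complexes, with log2 ratios from -0.47 to 0.06 and an SD of 0.17 over 10 measured nuclear subunits, beside SDs of 0.28 to 0.37 in the others. The median log2 ratio was -0.11, which became 0.06 with TMM and 0.08 with DESeq2 size factors. All of these subunits are accessory to the catalytic core, which the mitochondrial genome encodes. COX8A was at 1149 and 830 CPM (log2 ratio -0.47, -0.48 to -0.45) and COX7B at 627 and 488 CPM (log2 ratio -0.36). At the upper end stood COX7A2, at 1091 and 1088 CPM with an interval across 0, and NDUFA4, at 721 and 754 CPM (log2 ratio 0.06). NDUFA4 carries a complex I name but is now counted as a complex IV subunit.

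Complex V, the ATP synthase, held the nuclear subunit with the lowest ratio. ATP5ME, a small subunit of the membrane part, was at 621 CPM with vehicle (615 to 628) and 313 CPM with cytokines (309 to 317), 1.98-fold lower (log2 ratio -0.99, -1.01 to -0.96). It lies at chr4:672436-674330 on the minus strand (ENSG00000169020). ATP5F1E, the epsilon subunit of the F1 head, was at 2088 and 1484 CPM (log2 ratio -0.49, -0.50 to -0.48). The large subunits of the same head had log2 ratios above 0 over all cells. ATP5F1A, the alpha subunit, was at 236 and 314 CPM (log2 ratio 0.41, 0.38 to 0.44), the catalytic beta subunit ATP5F1B at 276 and 309 CPM (log2 ratio 0.16), and the gamma subunit ATP5F1C at 208 and 230 CPM (log2 ratio 0.14). Among S cells alone ATP5F1A stayed above 0 (0.09, 0.01 to 0.17), whereas ATP5F1B turned to -0.16 (-0.23 to -0.08) and ATP5F1C was at -0.07 with an interval across 0.

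The F1 head therefore depended on how its members were combined. Its 5 subunits summed to 3216 and 2685 CPM (log2 ratio -0.26), their median log2 ratio was 0.14, and without ATP5F1E the other 4 summed to 1128 and 1201 CPM (log2 ratio 0.09). In the stalk, ATP5PB was at 183 and 242 CPM (log2 ratio 0.40) and ATP5PD at 899 and 1073 CPM (log2 ratio 0.26), whereas ATP5PO was at 418 CPM in both libraries. Subunit c, which forms the rotating ring, is made from 3 genes that encode the same mature protein. ATP5MC1 was at 238 and 282 CPM, ATP5MC2 at 590 and 653 CPM, and ATP5MC3 at 603 and 495 CPM, with log2 ratios of 0.24, 0.15 and -0.28. The ratio of ATP5MC2 was smaller within each phase of the cell cycle, at 0.01 in G1, 0.04 in S and 0.07 in G2/M cells, each with an interval across 0. The 17 measured nuclear subunits of the complex had a median log2 ratio of -0.09, which became 0.09 with TMM and 0.10 with DESeq2 size factors.

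Of the paralogues with a row, COX6B2, NDUFA4L2 and UQCRHL were below 5 CPM in both libraries. COX6B1 was at 963 and 865 CPM and COX6B2 had 25 and 28 UMIs. NDUFA4L2, a paralogue of NDUFA4 known to respond to hypoxia, had 55 and 21 UMIs (log2 ratio -1.64, -2.44 to -0.89). UQCRHL, a retrogene of UQCRH, had 109 and 93 UMIs. COX7A2L, related to COX7A2 and known to bind complexes III and IV in supercomplexes, was at 200 and 226 CPM (log2 ratio 0.17). COX6A1 was at 757 and 744 CPM. COX6A2, COX7A1 and COX8C were not among the rows that the naming rule took, and COX4I2 was not analysed here. The antisense RNAs NDUFB2-AS1 and NDUFV2-AS1 had at most 2.05 CPM, and NDUFA6-DT was at 6.30 and 5.75 CPM.

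The log2 ratios of the mitochondrially encoded genes had an SD of 0.35, beside 0.32 for the nuclear subunits. This SD is widened by MT-ND6 (-0.77), which lies on the other strand, and MT-ATP8 (-0.69). The remaining genes lay between -0.34 and 0.39, and their SD was not computed. Of the 13, 2 (MT-ND6 and MT-ATP8), or 15.4%, were at least 1.5-fold lower, beside 19.9% of all measured genes, and none was at least 1.5-fold higher. With TMM MT-ATP8 was at -0.52 and MT-ND6 at -0.59, just past 1.5-fold, and with DESeq2 size factors both were short of it (-0.50 and -0.57). The median log2 ratio was -0.12, although their sum was higher, and became positive with TMM and DESeq2 scaling. Intervals lay above 0 for 5 genes and below 0 for 8, beside 2508 and 5289 of the 9192 measured genes.

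Among genes of the mitochondrial heavy strand transcript, MT-CYB, the cytochrome b of complex III, differed most upward, at 4829 CPM with vehicle and 6317 CPM with cytokines (log2 ratio 0.39, 0.38 to 0.39). MT-ND5 was at 1780 and 2162 CPM (log2 ratio 0.28) and MT-ND4 at 9329 and 10287 CPM (log2 ratio 0.14), both membrane subunits of complex I that pump protons. Of the complex IV core, MT-CO1 was at 6879 and 7672 CPM (log2 ratio 0.16) and MT-CO2 at 11306 and 12357 CPM (log2 ratio 0.13), whereas MT-CO3 was at 10903 and 9922 CPM (log2 ratio -0.14). So the 3 catalytic-core genes of complex IV did not move in parallel by library totals, and with TMM or DESeq2 scaling all 3 lie above 0.

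Other complex I genes of the mitochondrial genome had log2 ratios below 0 by library totals. MT-ND1 was at 3128 and 2733 CPM (log2 ratio -0.19), MT-ND2 at 5120 and 4955 CPM (-0.05), MT-ND3 at 3292 and 2661 CPM (-0.31) and MT-ND4L at 136 and 108 CPM (-0.34). MT-ND2 lay above 0 with TMM and DESeq2 scaling and in G1 cells, and MT-ND1 was at -0.02 with TMM and -0.0021 with DESeq2 size factors. MT-ND6, the gene of this set on the light strand (chrM:14149-14673, minus strand), was at 119 CPM with vehicle (116 to 122) and 70.0 CPM with cytokines (68.0 to 72.0), 1.70-fold lower (log2 ratio -0.77, -0.82 to -0.71). In ATP synthase, MT-ATP6 was at 7334 and 6747 CPM (log2 ratio -0.12) and MT-ATP8 at 27.4 and 17.0 CPM (log2 ratio -0.69, -0.80 to -0.58).

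MT-ATP8 and MT-ATP6 lie on a joint RNA, and their reading frames overlap, as do those of MT-ND4L and MT-ND4. The overlaps are shown because reads within them cannot be assigned to either gene alone, and because the first gene of each pair had far fewer UMIs than the second. Capitals mark the start codon of the second gene, in GRCh38 on the plus strand at chrM:8527-8572 and chrM:10760-10766.
MT-ATP8 and MT-ATP6: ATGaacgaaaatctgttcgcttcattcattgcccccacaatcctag
MT-ND4L and MT-ND4: ATGctaa
A library of transcript 3′ ends counts such a joint RNA mainly at its end. The levels of MT-ATP8 and MT-ND4L may therefore not be those of their reading frames. Where the reads fell was not tested.

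**Figure D2:**
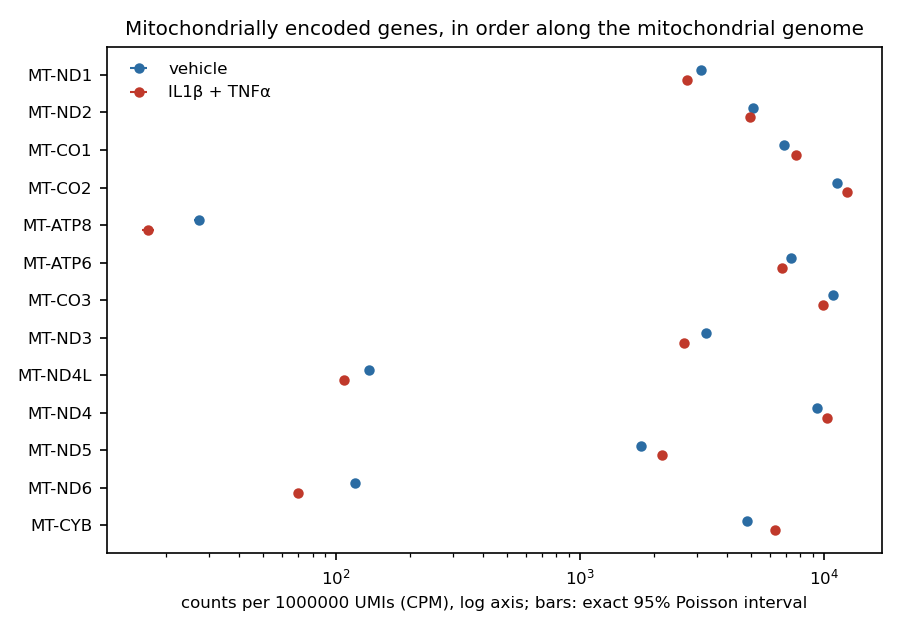
Level of the 13 mitochondrially encoded genes (y axis, in order along the genome) in CPM on a log x axis, in the vehicle (blue) and the cytokine-treated library (red), with bars for the exact 95% Poisson interval of counting, mostly narrower than the points. MT-ND6 stands at 119 and 70.0, MT-ATP8 at 27.4 and 17.0, and MT-CYB at 4829 and 6317, vehicle first.

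The share of cells in each phase of the cell cycle differed between the libraries, so both genomes were also set side by side within the phase calls. Nuclear subunits took a smaller share of UMIs in cytokine-treated cells in G1 (3.70% and 3.33% of UMIs), in S (3.73% and 3.28%) and in G2/M (3.53% and 3.32%) by library totals, and only 40 cytokine-treated cells were called G2/M. The mitochondrially encoded share was 6.56% and 6.62% in G1, 6.26% and 6.41% in S, and 6.55% and 6.61% in G2/M. The ratio of both sums was higher in the cytokine-treated cells in each phase, at 1.77 and 1.99 in G1, 1.68 and 1.95 in S, and 1.85 and 1.99 in G2/M.

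Among G1 cells, where 9.39% of measured genes passed 1.5-fold upward and 14.8% downward, NDUFV2 was again higher, and ATP5ME and NDUFC1 lower. Among S cells NDUFV2 was past 1.5-fold upward and ATP5ME downward (backgrounds 6.54% and 10.9%), and among G2/M cells NDUFV2 upward and ATP5ME downward (backgrounds 6.74% and 4.23%). NDUFV2 was at 240 and 546 CPM in G1, 249 and 501 CPM in S, and 231 and 486 CPM in G2/M. MT-ND6 was at 108 and 66.9 CPM in G1, 124 and 92.9 CPM in S, and 128 and 100.3 CPM in G2/M, and each of these differences was smaller (log2 ratios -0.69, -0.41 and -0.35) than the one over all cells. UQCRC2 was at 95.5 and 129 CPM in G1, whereas in S it was at 92.5 and 100.4 CPM with an interval across 0.

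Within the vehicle library the phases themselves differed little for these genes. No nuclear and no mitochondrially encoded member differed 1.5-fold between S and G1 cells, where 8.34% of measured genes were higher and 1.66% lower in S, or between G2/M and G1 cells, where 10.3% were higher and 3.64% lower in G2/M.

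The authors also deposited a cluster number for each cell. The 6 clusters were made from these same cells, so differences between them are a description, and their sizes differed between the libraries (cluster 0 held 10.0% of vehicle and 34.8% of cytokine-treated cells). In each cluster the ratio of mitochondrially encoded to nuclear UMIs was higher in the cytokine-treated cells, with log2 differences from 0.12 in cluster 5 (1.63 and 1.76) to 0.35 in cluster 0 (1.45 and 1.85). Cluster 1 had the highest ratio in both libraries (2.04 and 2.47), followed by cluster 4 (1.96 and 2.34).

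**Figure D3:**
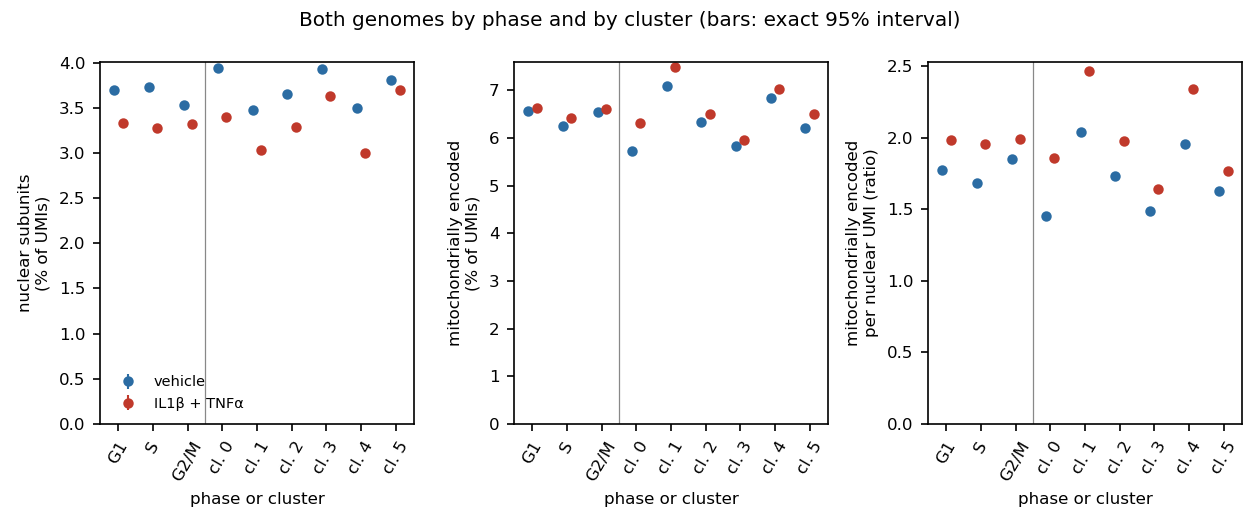
Share of UMIs from nuclear subunits (left), from mitochondrially encoded genes (middle) and the ratio of both (right), by phase call and by deposited cluster on the x axis, in vehicle (blue) and cytokine-treated cells (red), with exact 95% intervals that cover counting error only and are narrower than the points. By library totals the nuclear share is lower, and the mitochondrial share and the ratio are higher, in the cytokine-treated cells of all 3 phases and all 6 clusters, the nuclear sum over all cells turns above that of the vehicle with TMM and DESeq2 scaling, and the ratio runs from 1.45 to 2.04 over vehicle clusters and from 1.64 to 2.47 over cytokine-treated clusters.

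By library totals, 29 of the 75 nuclear subunits were lower and 13 were higher in the cytokine-treated cells of all 6 clusters, and 33 were mixed, while 36.6% of all measured genes were lower and 16.5% higher in all 6. For 16 nuclear subunits every cytokine-treated cluster lay below every vehicle cluster, which held for 9.77% of all measured genes. These 16 included ATP5ME, with 568 to 673 CPM over the vehicle clusters and 307 to 360 CPM over the cytokine-treated clusters, and ATP5F1E, with 1909 to 2274 and 1401 to 1618 CPM. Upward, NDUFV2 was the nuclear subunit whose ranges lay apart, with 189 to 289 CPM and 391 to 677 CPM, and 5.77% of all measured genes did so. In the vehicle, measured genes had a median of 21.5 CPM and the nuclear subunits 381 CPM. Counting error widens ranges at low counts, so the shares over all genes are not at like levels. MT-CYB was the mitochondrial gene whose ranges lay apart (4361 to 5706 and 5728 to 7206 CPM). MT-ND6 was lower in all 6 clusters, but its ranges overlapped (92.3 to 138 and 57.4 to 100.2 CPM).

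Some nuclear subunits also differed between the clusters of a library. The fold between the highest and the lowest cluster had a median of 1.32 over the 75 subunits in the vehicle and 1.41 in the cytokine-treated library, with maxima of 2.25 and 2.53, both for NDUFA9. A spread of at least 1.5-fold was seen for 24 of the 75 in the vehicle and 30 in the cytokine-treated library. For 20, or 26.7%, it was seen in both, beside 28.1% of the genes at 20 CPM or more in both libraries. The nuclear subunits had a median of 381 CPM in the vehicle, well above that limit. At low counts, counting error alone widens the fold, so the shares are not at like levels. Of the 20 subunits, 16 were highest in cluster 3 in both libraries and 19 were lowest in cluster 1 or 4. They included the large subunits NDUFA9, NDUFV1, UQCRC1, UQCRC2, ATP5F1A, ATP5F1B, ATP5F1C and SDHB. Short ones were also among them, which were COX6C (225 coding bases), NDUFC2 (357) and NDUFB4 (387). NDUFS1, with 2181 coding bases, spread only 1.15-fold in the vehicle and 1.27-fold in the cytokine-treated library. NDUFA9, for example, was at 79.3 CPM in cluster 3 and 35.3 CPM in cluster 4 of the vehicle cells, and at 94.7 and 37.4 CPM in the same clusters of the cytokine-treated cells. By contrast, 14 subunits, 13 of them with coding sequences under the median of 411 bases and among them ATP5F1E, ATP5ME, COX7A2, UQCRH and UQCRQ, spread less than 1.2-fold in both libraries.

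Mitochondrially encoded genes were mostly highest in other clusters than these 20 subunits. The fold between clusters had a median of 1.26 in each library, 8 of 13 genes in the vehicle and 9 of 13 in the cytokine-treated library were highest in cluster 1, and 7 and 8 were lowest in cluster 3. Over all 75 nuclear subunits, 36 were highest in cluster 3 in the vehicle, and in the cytokine-treated library 35 were highest in cluster 5 and 31 in cluster 3. In the vehicle 6 nuclear subunits were highest in cluster 0 and lowest in cluster 1. These were UQCRH, COX5B, COX6B1 and the 3 members on the long arm of chromosome 8, which are UQCRB, COX6C and NDUFB9. NDUFB9 was at 409 and 215 CPM and COX6C at 1022 and 608 CPM in these clusters. In the cytokine-treated library the 3 members on chromosome 8 were again lowest in cluster 1, and UQCRB and COX6C were highest in cluster 0, but NDUFB9 was highest in cluster 5 (320.0 CPM, beside 303 CPM in cluster 0).

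The length of the coding sequence, which the rule did not use, followed both patterns. Over the 75 nuclear subunits the log2 ratio and coding length (GENCODE 44, median 411 bases) had a Spearman rho of 0.60 across genes, which share both libraries and are not independent. The 37 shorter subunits had a median log2 ratio of -0.22 by library totals, which lies closer to 0 and still below it with TMM and DESeq2 scaling, and 28 of their intervals lay below 0. The 38 longer subunits had a median of 0.04, which turns just below 0 with totals that leave out ribosomal and mitochondrial genes. Of their intervals, 19 lay above 0 and 14 below, beside 2508 and 5289 over the 9192 measured genes. Without NDUFV2 rho was 0.60, and within G1, S and G2/M cells it was 0.66, 0.42 and 0.66. Transcript length gave a rho of 0.26.

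This relation was not a feature of all genes. Over 8744 measured genes with a coding length, rho was -0.20, over 81 cytosolic ribosomal protein genes it was 0.57, and over 78 mitochondrial ribosomal protein genes it was 0.16. The fold between clusters within a library also followed coding length among the nuclear subunits (rho 0.68 in the vehicle and 0.63 in the cytokine-treated library). The 20 subunits that spread at least 1.5-fold had a median coding length of 780 bases, and the 14 that spread less than 1.2-fold had a median of 228 bases. No value here separates length from level or from the RNA's other features, and their part was not tested.

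**Figure D4:**
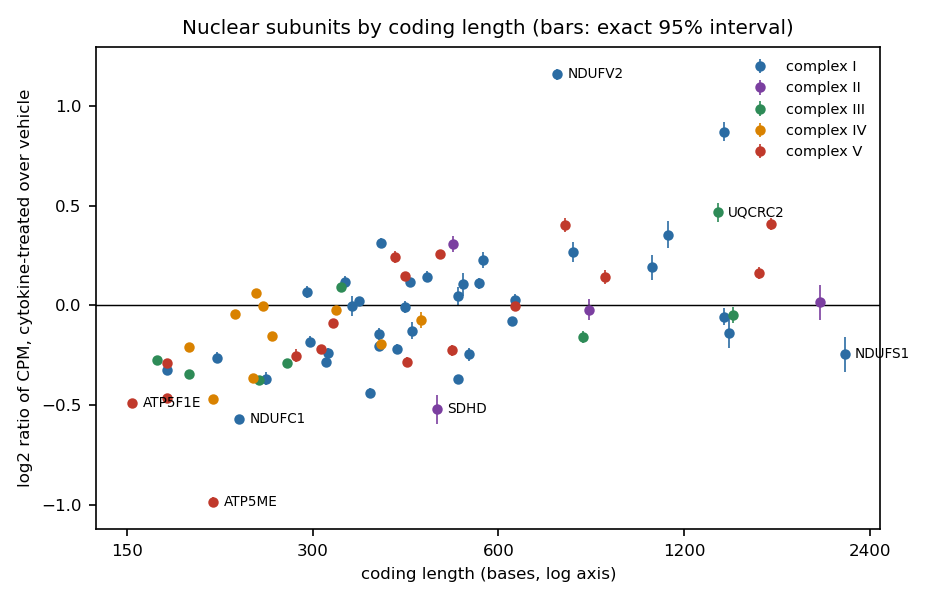
Coding length in bases (log x axis) and log2 ratio of CPM, cytokine-treated over vehicle (y axis), for the 75 measured nuclear subunits, coloured by complex, with exact 95% intervals that cover counting error only. Spearman rho across genes is 0.60, and the named genes run from ATP5ME at -0.99 to NDUFV2 at 1.16.

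**Figure D5:**
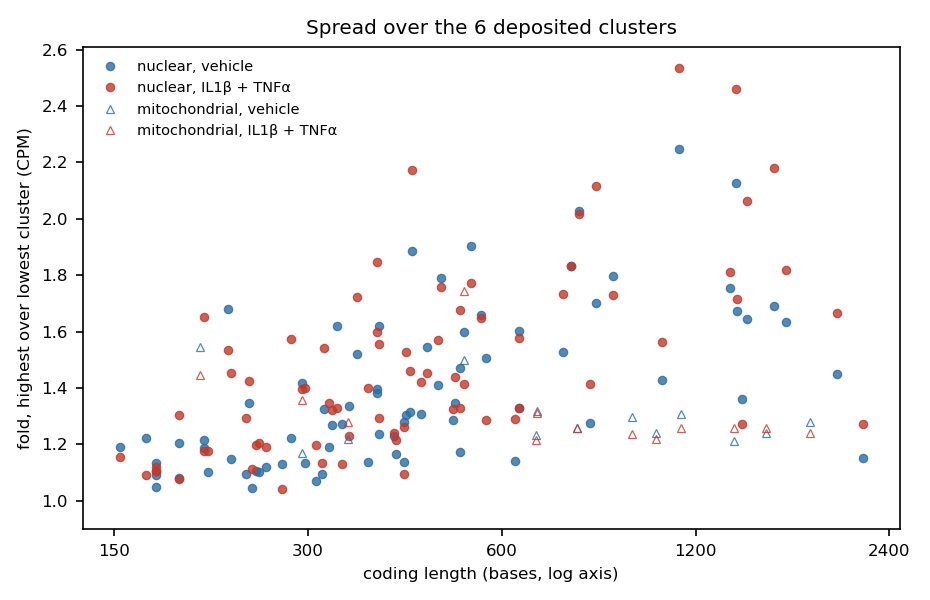
Fold between the highest and the lowest of the 6 deposited clusters in CPM (y axis) by coding length in bases (log x axis), for nuclear subunits (filled circles) and mitochondrially encoded genes (open triangles) in the vehicle (blue) and the cytokine-treated library (red). Nuclear medians are 1.32 and 1.41 and mitochondrial medians 1.26 in both libraries. Many short nuclear subunits lie near the bottom, but COX6C, with 225 bases, is at 1.68 and 1.54, vehicle first.

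From cell to cell, the nuclear complexes varied together. Across the cells of a library, the share of UMIs from complex I and that from complex V had a Pearson r of 0.63 in the vehicle (2822 cells) and 0.71 in the cytokine-treated library (3163 cells), and complex II, with few UMIs per cell, had lower values with the others (0.11 to 0.41). The nuclear and mitochondrially encoded shares had an r of -0.28 and -0.34. For another pair of shares r was -0.05 and -0.20. There the nuclear denominator left out ribosomal and mitochondrial genes, and the mitochondrial denominator left out ribosomal genes. All these shares have common or overlapping denominators, and cells of a library come from the same culture, so the values are descriptions.

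In cells thinned to 15000 UMIs (2586 vehicle and 3033 cytokine-treated cells, with 236 and 130 shallower cells left out), the spread beyond Poisson counting was given as a coefficient of variation (CV). It had a median of 20.7% over the nuclear subunits in both libraries, and of 27.8% and 25.5% over the mitochondrially encoded genes. MT-ND6 had the highest value of the mitochondrial genes in both libraries (61.6% and 56.9%), and among the nuclear subunits NDUFA9 was at 43.5% and 44.6%. MT-ND6 was found in 78.7% of the thinned vehicle cells and 60.8% of the thinned cytokine-treated cells. Across cells, the level of MT-ND6 had a median r of 0.12 with the other mitochondrial genes in the vehicle and 0.13 in the cytokine-treated library, and other genes with few UMIs per cell were also low, with MT-ND4L at 0.18 and 0.16 and MT-ATP8 at 0.05 in both. MT-CYB and MT-ND4, with far more UMIs per cell, had 0.52 and 0.60 in the vehicle and 0.55 and 0.61 in the cytokine-treated library.

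Subunits of the chain that the naming rule leaves out went in both directions. COX4I1, the main form of subunit 4 of complex IV, was at 750 and 1034 CPM (log2 ratio 0.46, 0.45 to 0.48), a higher log2 ratio than that of any of the 10 measured complex IV members. CYCS, the electron carrier cytochrome c, was at 280 and 191 CPM (log2 ratio -0.55), and CYC1, the cytochrome c1 of complex III, at 296 and 253 CPM (-0.23). NDUFAB1, an acyl carrier protein that is also a complex I subunit, was at 373 and 348 CPM, and ATP5IF1, the inhibitor of ATP synthase, at 457 and 529 CPM (log2 ratio 0.21).

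Factors that help to build the complexes had medians below 0 by library totals. Over 3 lists, 7 of 55 factors, or 12.7%, were at least 1.5-fold lower, fewer than the 19.9% of all measured genes. Their intervals lay below 0 for 35 and above 0 for 12, beside 5289 and 2508 over the 9192 measured genes. None of 16 measured complex I assembly factors was at least 1.5-fold higher and 2 were lower, with a median log2 ratio of -0.26. Of 24 complex IV assembly factors, 4 were lower and the median was -0.25. NDUFAF8 was at 387 and 203 CPM and CMC2 at 64.2 and 32.9 CPM (log2 ratios -0.93 and -0.97), and SCO2, which delivers copper to complex IV, was at 88.2 and 124 CPM. Of 15 factors for complexes II, III and V, 1 was lower, intervals lay below 0 for 7, and the median of -0.15 turns above 0 with TMM and DESeq2 scaling.

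Genes for the mitochondrial genome and its RNA had a median log2 ratio of -0.33. Of 24 measured, 5, or 20.8%, were at least 1.5-fold lower and none higher, a share close to the 19.9% of all measured genes. TFAM, which packs and transcribes the mitochondrial genome, was at 97.4 and 52.5 CPM (log2 ratio -0.89, -0.95 to -0.83), and at the upper end FASTK was at 60.9 and 68.6 CPM. Of 6 measured regulators of mitochondrial biogenesis, 1 (16.7%) was lower, PPRC1, at 13.8 and 6.83 CPM (log2 ratio -1.01), while YY1 was at 106 and 73.0 CPM (-0.53) and ESRRA at 32.1 and 30.6 CPM. The coactivators PPARGC1A and PPARGC1B were below 5 CPM and so not measured, with 23 and 64 UMIs for the former and 231 and 135 UMIs for the latter. Of 29 genes of mitochondrial import and the inner membrane, 8, or 27.6%, were lower beside 19.9% of all measured genes, among them TIMM8A at 37.7 and 16.9 CPM, with a median of -0.32, while OXA1L, which inserts mitochondrially made proteins, was at 47.3 and 67.9 CPM.

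The tricarboxylic acid cycle, which feeds the chain, had a median log2 ratio of 0.08 over its 17 measured genes. Their intervals lay above 0 for 8, below 0 for 6 and across 0 for 3. Over the 9192 measured genes these counts were 2508, 5289 and 1395. Of the 17, 1 (5.88%) was at least 1.5-fold higher, beside 9.01% of all measured genes, IDH3G at 71.7 and 118 CPM (log2 ratio 0.72), and none was lower. DLST was at 24.4 and 16.9 CPM. The 78 mitochondrial ribosomal protein genes and the 81 cytosolic ones each had a median of -0.17 by library totals, which turns just above 0 with TMM and DESeq2 scaling. In these sets 3 and 4 genes (3.85% and 4.94%) were at least 1.5-fold lower, beside 19.9% of all measured genes. In the first set MRPL11 was at 246 and 132 CPM and MRPS28 at 25.4 and 32.6 CPM, and in the second RPS29 was at 4307 and 2406 CPM and RPL10 at 18064 and 26404 CPM. The nuclear RNA MALAT1 was at 25169 and 34350 CPM (log2 ratio 0.45) and NEAT1 at 1780 and 2139 CPM (0.26). Their part in the lower nuclear sum was not tested.

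Promoters of the nuclear subunits were read for motifs of factors known to act on respiratory genes. RefSeq (GRCh38.p14) listed a start for 62 of the 75 measured subunits, and the 250 bases before the first start listed were searched on both strands. GCGC, any base and TGCGC in a row, for NRF1, was in 22.6% of the 62 and in 5.53% of 27305 listed promoters, and CCGGAAG, for ETS factors such as GABP, in 27.4% and 8.82%. CCAAT was in 30.6% and 33.0%, and AAGATGG followed by CGGC, for YY1, in 0 of the 62 and in 0.256% of all. GGGA, any base and TTTCC in a row, for NF-κB, was in 1.61% of the 62, which is UQCRC2 alone, and in 0.546% of all. The subunits with the NRF1 motif had a median log2 ratio of -0.09 and those without it -0.08, and for the ETS motif these medians were -0.22 and -0.05. A match describes letters in a window, not binding. Bases after the listed start were not searched, so motifs there would be missed.

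Upstream sequence is shown for the subunits with the highest and the lowest ratio, and for the match in UQCRC2. NDUFV2 is read from chr18:9102449-9102629 on the plus strand, and ATP5ME from chr4:674331-674526 on the minus strand, both up to the first base of the GENCODE gene. UQCRC2 is read from chr16:21953338-21953360 on the plus strand, which lies within the GENCODE gene. Capitals mark matches to the motifs above, which are 2 NRF1 matches in ATP5ME, the NF-κB match in UQCRC2 and none in NDUFV2.
NDUFV2: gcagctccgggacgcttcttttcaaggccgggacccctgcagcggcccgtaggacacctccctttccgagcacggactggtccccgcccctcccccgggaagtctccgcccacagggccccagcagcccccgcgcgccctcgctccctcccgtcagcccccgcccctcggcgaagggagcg
ATP5ME: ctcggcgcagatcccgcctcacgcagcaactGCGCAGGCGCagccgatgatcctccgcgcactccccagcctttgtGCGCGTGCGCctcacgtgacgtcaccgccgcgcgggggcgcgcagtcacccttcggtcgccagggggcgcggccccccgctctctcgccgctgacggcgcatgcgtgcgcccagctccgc
UQCRC2: gggaacgctgGGAAACTCCCggc
Both longer windows were rich in G and C, at 75.1% for NDUFV2 and 75.5% for ATP5ME, although the ratios of these subunits lay at opposite ends.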

How the data were processed

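MDA-MB-453 cells of 1 vehicle and 1 cytokine-treated library were sequenced as single-cell transcript 3′ ends, and cells were assigned to libraries by the sample column of the cell table. Raw UMI counts were deposited by the authors, who ran Cell Ranger 3.1.0 with GRCh38, together with a percent of mitochondrial UMIs, a phase call and a cluster number per cell. Per the study's methods, Seurat 4.0.4 kept cells under 50000 UMIs, with 3000 to 5000 genes and under 15% mitochondrial UMIs, and no deposited cell lay outside these limits. That last limit bounds the mitochondrially encoded share of any cell. How clusters were made is not given in the sources used here, and doublets were not called here.

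UMIs were summed per library, phase and cluster (Python 3.11.15, numpy 2.4.6, scipy 1.17.1). CPM has exact Poisson and log2 ratios exact conditional binomial 95% intervals. Coordinates and coding lengths came from GENCODE 44, with 96 of 96 members matched. TMM (edgeR 4.0.16) and DESeq2 1.42.0 size factors gave scalings alone. Ratios and calls were tested on simulated data. Genes named were all MT and SDH genes, the 2 highest and 2 lowest ratios of each other complex at 20 CPM or more, paralogues, subunits the rule leaves out, and the extremes of each list, and others with their values were added to describe complexes. A gene that this rule names is not reported here. Members and lists were chosen with earlier results of these data known. Alternatives were other scalings and totals, per-cell means, subsets of cells, other CPM limits, a 2-fold limit and NDUFA4 in complex I.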

Additional observations from a re-analysis of the deposited data

Results flagged for a closer look

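For 6 members and 1 complex the log2 ratio, cytokine-treated over vehicle, lay above 0 in cells of one phase and below 0 in cells of the other, with the counting intervals of both on their own side. UQCRB was at -0.03 in G1 cells and 0.14 in S cells. In the other direction, NDUFA8 was at 0.13 in G1 cells and -0.16 in S cells, NDUFB8 at 0.09 and -0.09, ATP5F1B at 0.15 and -0.16, and COX5A at 0.07 and -0.11. MT-ND2 was at 0.02 in G1 cells and -0.04 in S cells. The 4 nuclear genes of complex II summed to a log2 ratio of 0.08 in G1 cells and -0.12 in S cells. The values below 0 are all closer to 0 than the 0.18 or 0.19 that TMM or DESeq2 size factors of the whole libraries add. These differences between phases were not tested, since each phase of each condition came from 1 library.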

How the results depend on the processing

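No paired analysis was possible because each condition was 1 library, and for the same reason no replicate could be left out. The nuclear sum (log2 ratio -0.15) was 0.032 with TMM, 0.048 with DESeq2 size factors, -0.20 with totals without ribosomal and mitochondrial genes, -0.15 as a mean of per-cell CPM and -0.15 in G1 cells. The mitochondrially encoded sum (0.04) was 0.22, 0.23, -0.013, 0.049 and 0.014 under these settings in turn, and 0.038 in cells with 15000 to 30000 UMIs. The log2 difference of their ratio (0.19) was 0.20 as a per-cell mean and 0.16 in G1 cells. Nuclear subunits at least 1.5-fold lower numbered 1, but 2 with totals without those genes and in G1 cells, and 0 at least 2-fold lower. Those at least 1.5-fold higher numbered 2, but 5 with DESeq2 size factors and relative to the median gene, and 1 at least 2-fold. Of all measured genes, 19.9% were at least 1.5-fold lower and 9.01% higher, beside 14.8% and 9.39% in G1 cells. At 2-fold these shares were 7.48% and 4.29%. Shares over all genes under the other scalings and totals were not computed, so those counts have no background beside them. With TMM and DESeq2 size factors the medians were 0.14 and 0.16 for complex I, 0.17 and 0.19 for II, -0.038 and -0.023 for III, 0.063 and 0.079 for IV, and 0.088 and 0.10 for V. The complex V median (-0.09) was -0.14 with totals without ribosomal and mitochondrial genes, -0.058 in G1 cells and -0.15 with genes measured from 1 CPM, which adds ATP5MGL. Of the 43 members named by rule, 8 changed sign under TMM and 8 under DESeq2 size factors, 3 in G1 cells, and 0 in cells under 10% mitochondrial UMIs. At this depth counting intervals of members are narrow, and the spread between cultures is unknown.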
